A study of Mus musculus with 8 samples.

Results

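The prostanoid and epoxide hydrolase genes described here are *Ptgis*, *Ptgs1*, *Ptgs2*, *Ptges*, *Ptgds*, *Tbxas1*, *Alox5*, *Ephx1*, *Ephx2* and *Ephx3*. They are 10 of the 46517 genes counted in 3491 single cells of the mouse liver. The genes were chosen by name, with their levels across the cell populations of this atlas already known, so those levels are given below as a description and without a test.

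Single cells were sorted into plates from dissociated livers of untreated adult mice and sequenced by Smart-seq2, a full-length method without molecular identifiers or strand information. The mice were C57BL6/J or reporter animals that carried Pdgfrb-GFP, Pdgfra-H2bGFP, Acta2-GFP, Cspg4-dsRED or Cldn5-GFP, in which a fluorescent protein follows the promoter of a mural, fibroblast or endothelial gene. Cells were enriched by the reporters or by antibodies against CD31, VE-cadherin, CD68, EPCAM or PDGFRα, and hepatocytes were taken without enrichment, so the number of cells of a type reflects the sort. The cells formed 8 pools, a male and a female pool for each of 4 classes. The mesenchymal pools held 998 male and 339 female cells, the endothelial pools 655 and 451, the immune pools 255 and 396, and the parenchymal pools, which the labels call epithelial, 358 and 39.

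The labels do not tie cells to mice, none of the 22 plates held cells of both sexes, and the female mesenchymal pool was a single plate, so mouse, plate and sex cannot be told apart. A cell held between 47063 and 1128421 gene counts, with a median of 228708. The defining markers of each class were present in the class that carried the label. Summed endothelial markers, for example, lay between 5789 and 6309 CPM (the count of a gene per 1000000 gene counts) in the endothelial pools and between 48.8 and 557 CPM in the other 6 pools. The authors annotated 26 cells of the immune class as contaminated, and their 5 endothelial markers summed to 2863 CPM. Leaving these cells out moved the level of each of the 10 genes in its highest class by less than the spread between pools, but it changed the comparison of the sexes for *Ptgs2*, given at the end.

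Prostanoids are short-lived lipid signals made from arachidonic acid, which phospholipases release from membranes. A cyclooxygenase, encoded by *Ptgs1* or *Ptgs2*, turns arachidonic acid into prostaglandin H2, and a terminal synthase then decides the product. Prostacyclin synthase (*Ptgis*) makes a vasodilator, thromboxane synthase (*Tbxas1*) a vasoconstrictor and platelet activator, and *Ptges* and *Ptgds* make prostaglandins E2 and D2. 5-lipoxygenase (*Alox5*) uses the same fatty acid for leukotrienes. Cytochrome P450 enzymes convert it into epoxides, and soluble epoxide hydrolase (*Ephx2*) and *Ephx3* open these rings, while microsomal epoxide hydrolase (*Ephx1*) is best known for the detoxification of foreign epoxides.

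The 2 cyclooxygenase genes had their highest levels in different classes, and *Tbxas1* and *Ptgs1* were both high in Kupffer cells, so the 250 bases upstream of the start of these 3 genes are shown, 5′ to 3′ on the strand of the gene, from RefSeq on GRCm38.p6. Capitals mark matches, on either strand, to the TATA box TATAAA, the GC box GGGCGG, the E box CACGTG, the core TGACG of the cyclic AMP response element or the serum response factor box. *Ptgs1* is shown at chr2:36230176-36230425, plus strand, *Ptgs2* at chr1:150099781-150100030, plus strand, and *Tbxas1* at chr6:38918736-38918985, plus strand.
Ptgs1: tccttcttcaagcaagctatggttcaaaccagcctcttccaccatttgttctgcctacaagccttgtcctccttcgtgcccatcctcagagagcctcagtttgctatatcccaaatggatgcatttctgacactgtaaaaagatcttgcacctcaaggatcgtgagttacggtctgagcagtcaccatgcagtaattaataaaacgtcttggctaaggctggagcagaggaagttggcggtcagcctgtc
Ptgs2: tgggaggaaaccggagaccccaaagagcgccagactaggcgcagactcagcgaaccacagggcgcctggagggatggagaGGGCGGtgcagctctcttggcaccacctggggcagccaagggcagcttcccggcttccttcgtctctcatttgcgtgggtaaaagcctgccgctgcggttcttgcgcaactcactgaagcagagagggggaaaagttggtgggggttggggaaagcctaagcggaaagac
Tbxas1: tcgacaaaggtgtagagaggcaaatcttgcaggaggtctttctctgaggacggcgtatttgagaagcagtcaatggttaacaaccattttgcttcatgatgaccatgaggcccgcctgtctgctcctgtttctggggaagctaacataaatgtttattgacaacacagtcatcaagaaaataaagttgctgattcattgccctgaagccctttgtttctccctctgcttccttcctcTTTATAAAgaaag
The *Ptgs2* window held 1 GC box, and 32.7% of 32851 promoters of the same length did so. The *Tbxas1* window held TATAAA on both strands in overlapping letters, and 12.4% of promoters held this motif. The *Ptgs1* window matched none of the motifs. The E box was present in 6.02%, the TGACG core in 17.8% and the serum response factor box in 1.47% of all promoters. These matches describe letters and not binding. The window of *Tbxas1* lies inside the gene model counted here, which starts at position 38875404 of chromosome 6, so it belongs to a downstream start. Of the 10 genes, 8 had an entry in the promoter table, and *Ptgis* and *Ephx2* had none.

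**Figure D1:**
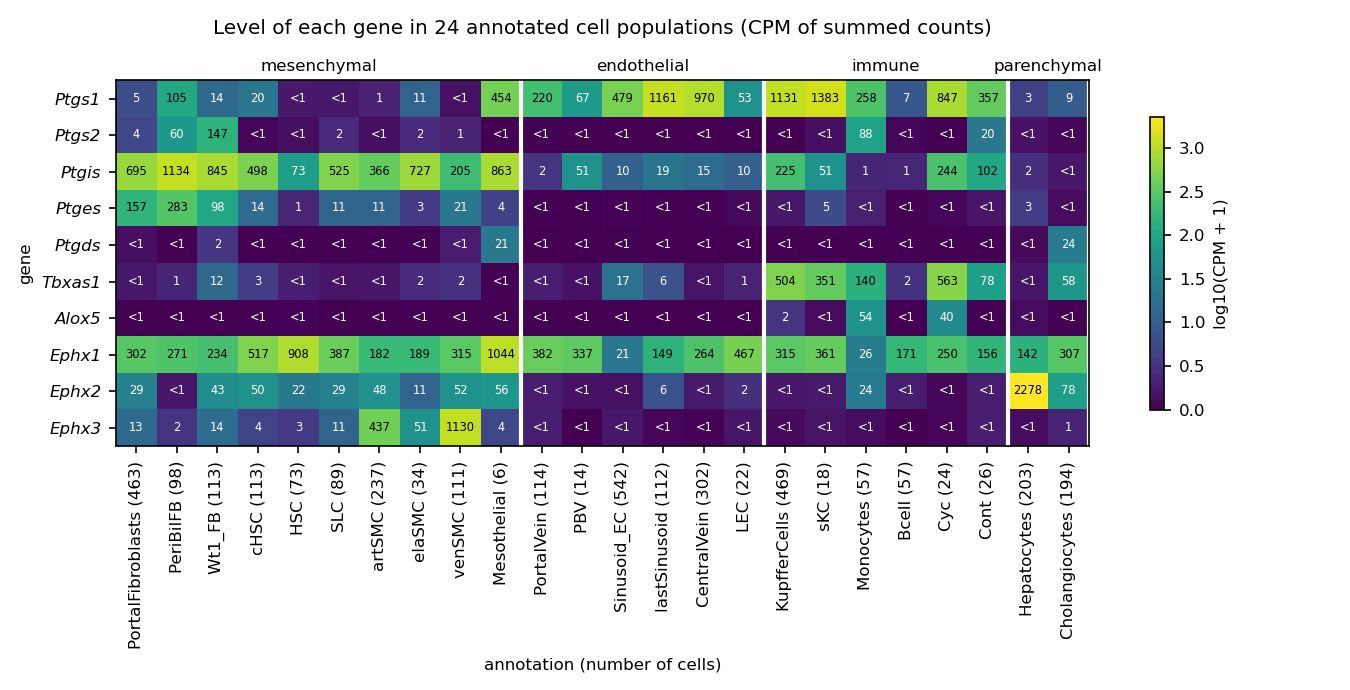
Level of the 10 genes (rows) in the 24 annotated populations (columns), as CPM of the summed cells of a population on a logarithmic colour scale. *Ephx1* was at 10 CPM or more in all 24 populations, while *Ptgds* and *Alox5* passed 10 CPM in 2 populations each.

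Levels are given as the CPM of the counts summed over the cells of a group, without spike-in RNA. The spread is the range over plates that held at least 5 cells of the group. A cell is called positive for a gene at 20 counts or more, the detection limit of the study. Intervals of shares are exact 95% Clopper-Pearson intervals that treat cells as independent and cover the counting of cells only. Cells share plates and mice, so these intervals do not cover the spread between plates or mice. Reads without molecular identifiers are not independent molecules.

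*Ptgs1*, the constitutive cyclooxygenase, was highest in the immune and endothelial classes. The male immune pool held 472 CPM and the female one 1206 CPM, and the endothelial pools 655 CPM (male) and 686 CPM (female). The mesenchymal pools lay at 21.3 and 7.34 CPM, and the parenchymal pools at 5.78 and 22.5 CPM. The endothelial pools were close to each other, whereas the female immune pool was well above the male one. The immune pools differed in make-up, with 115 Kupffer cells of 255 male cells and 354 of 396 female cells. All 57 B cells were male. Kupffer cells alone stood at 611 CPM (male) and 1250 CPM (female). Some mesenchymal populations stood above their class, with 454 CPM and 4 positive of 6 mesothelial cells, and 105 CPM (16.1 to 239.7 over 4 plates) and 19 positive of 98 peribiliary fibroblasts.

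Among immune cells, *Ptgs1* stood at 1131 CPM in the 469 Kupffer cells, the resident macrophages of the sinusoid. The 4 male plates gave 396, 691, 781 and 990 CPM and the 2 female plates 1213 and 1254 CPM, so the plates of both sexes did not overlap. The share of positive Kupffer cells was 78.7% (95% interval 74.7 to 82.3). The 18 cells annotated as sKC held 1383 CPM, the highest level of the 24 populations, but 17 of them came from the male pool and a single plate held 5 cells or more. B cells stood at the other end with 7.33 CPM and 0 positive of 57 cells (95% interval 0 to 6.27%), although 73.7% of them held at least 1 count.

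In the monocyte annotation, *Ptgs1* was uneven. Its 3 plates gave 6.92, 9.71 and 472 CPM, and all 14 positive cells were in community cluster #i2c. Of these 14 cells, 11 also held at least 20 counts of a gene on a list of 6 platelet and megakaryocyte markers, against 8 of the other 43 monocytes, and the part of such RNA in the *Ptgs1* level was not tested.

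Along the vascular tree of the liver lobule, *Ptgs1* was highest at the outflow side. The last sinusoidal segment before the central vein held 1161 CPM, with a range of 1044 to 1764 CPM over 5 plates. Central vein endothelium stood at 970 CPM (307 to 1383 over 9 plates), sinusoidal endothelium at 479 CPM (82.1 to 590 over 12 plates) and portal vein endothelium at 220 CPM (17.4 to 342 over 8 plates). The plates of the last sinusoidal segment did not overlap with those of sinusoidal or portal vein endothelium, but they did overlap with those of the central vein. Vessels of the peribiliary plexus (66.9 CPM in 14 cells) and lymphatic endothelium (52.8 CPM in 22 cells) were the lowest endothelial populations, and 1 cell held 90.4% and 63.1% of their counts.

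**Figure D2:**
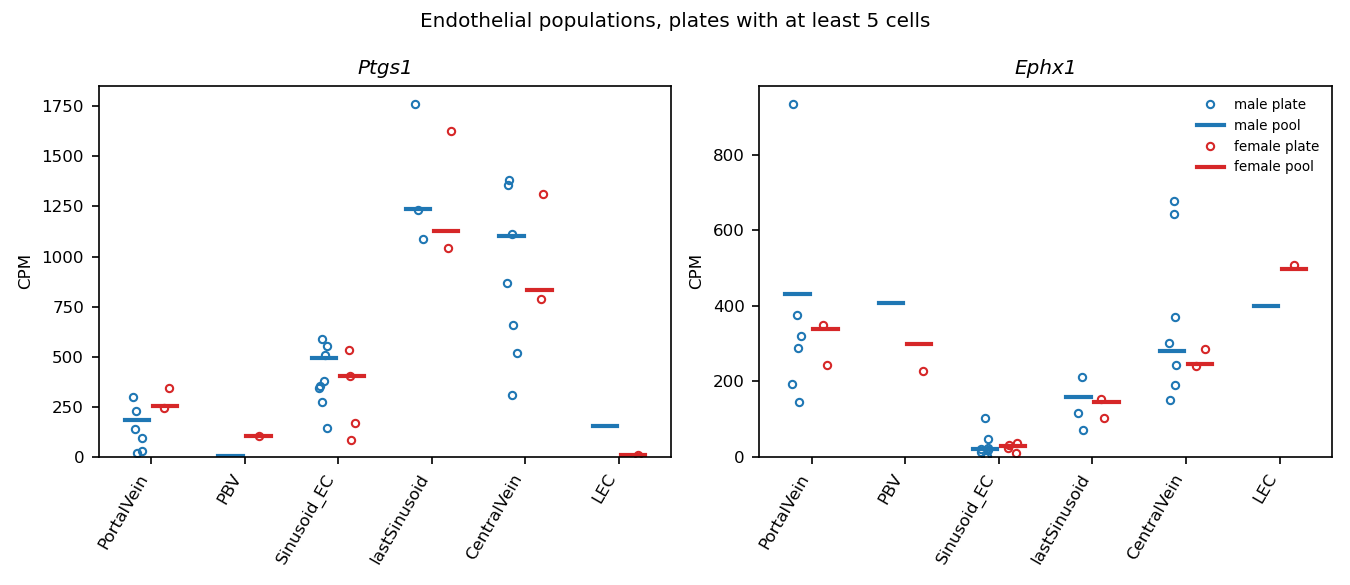
CPM of *Ptgs1* and *Ephx1* on each plate (points, coloured by sex) in the endothelial populations, with a dash for the level of the male and of the female pool. *Ptgs1* was lowest in lymphatic and peribiliary endothelium, whereas *Ephx1* was lowest in sinusoidal endothelium, at 21.2 CPM.

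*Ptgs2*, the inducible cyclooxygenase, was rare and was concentrated in few cells. In all 3491 cells it had 8464 counts, of which 96.6% came from 38 positive cells and 74.0% from 10 cells. The mesenchymal pools held 28.6 CPM (male) and 4.23 CPM (female), the immune pools 24.8 and 0.0511 CPM, and endothelium and parenchyma less than 1 CPM.

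The capsular *Wt1*-positive fibroblasts had the highest *Ptgs2* level, 147 CPM, with 14 positive of 113 cells (12.4%, 95% interval 6.94 to 19.9). Their 3 male plates gave 8.85, 17.5 and 291 CPM and the female plate 34.5 CPM, so the level rested on 1 male plate with 50 of the cells. Peribiliary fibroblasts followed the same form. One male plate stood at 96.2 CPM, another at 12.5 CPM, and the remaining male plate and the female plate at 0, and 1 of the 98 cells held 65.4% of the counts. Monocytes held 88.3 CPM in 57 cells, with plate values of 0, 95.7 and 148 CPM.

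The 2 *Wt1* fibroblast communities differed in *Ptgs2*, which stood at 257 CPM in #m11c, where 1 of 53 cells held 54.8% of the counts, and at 40.8 CPM in #m12c. A list of 6 genes, chosen after the values were seen, held the immediate early genes *Fos*, *Jun*, *Egr1*, *Atf3* and *Ier2* and the cytokine gene *Il6*. Over the clusters, *Il6* was the gene most like *Ptgs2* (r = 0.84), so the list is not independent of *Ptgs2*. The summed level of the list was 10999 CPM in #m11c and 7299 CPM in #m12c. It was 10826 CPM in arterial smooth muscle cells, where *Ptgs2* stood at 0.363 CPM. The part of a stress response to dissociation in the *Ptgs2* level was not tested.

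Cells positive for both cyclooxygenases were few, as were cells positive for *Ptgs2* at all. The endothelium held 598 cells positive for *Ptgs1* and 0 for *Ptgs2*. The immune class held 431 cells positive for *Ptgs1*, 7 for *Ptgs2* and 0 for both. The mesenchyme held 35 cells positive for *Ptgs1*, 31 for *Ptgs2* and 3 for both, 2 of them peribiliary fibroblasts. These 3 were 9.68% of the *Ptgs2*-positive cells, beside a share of 2.62% *Ptgs1*-positive cells in the whole class.

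*Ptgis*, which encodes prostacyclin synthase, was the synthase gene of the mesenchyme. The mesenchymal pools stood at 592 CPM (male) and 608 CPM (female), a difference smaller than the spread between plates of 1 population. Both endothelial pools stayed below 15 CPM, and parenchymal cells of both sexes held 1.10 CPM. Vascular endothelium is a known site of prostacyclin synthesis in large vessels, and in these liver cells the gene stood at 14.6 CPM in central vein and 2.18 CPM in portal vein endothelium.

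Within the mesenchyme, *Ptgis* was highest in the fibroblasts around the bile ducts. Peribiliary fibroblasts held 1134 CPM (985 to 1647 over 4 plates) and 93.9% of them were positive (95% interval 87.1 to 97.7). *Wt1* fibroblasts held 845 CPM (536 to 1382 over 4 plates) and portal fibroblasts 695 CPM (468 to 978 over 7 plates). The *Wt1* fibroblasts overlapped with both other groups over plates, whereas every portal fibroblast plate lay below every peribiliary one.

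Hepatic stellate cells (HSC), which lie along the sinusoid and in part resemble pericytes, split by position. The capsular stellate cells (cHSC) stood at 498 CPM *Ptgis*, with 7 plates between 319 and 1010 CPM. The other stellate cells (HSC) stood at 73.0 CPM, with 5 plates between 3.66 and 108 CPM. The plates of both did not overlap, and 51.3% of the capsular cells against 12.3% of the other stellate cells were positive. The cells annotated as second-layer cells (SLC), whose place in the vein walls the authors inferred, lay with the capsular cells at 525 CPM.

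Mural cells varied in *Ptgis* as well. Large vein smooth muscle cells stood at 727 CPM, arterial smooth muscle cells at 366 CPM (231 to 391 over 4 plates) and venous smooth muscle cells at 205 CPM (0 to 263 over 7 plates). The venous group held communities #m8c at 143 CPM and #m9c at 292 CPM.

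**Figure D3:**
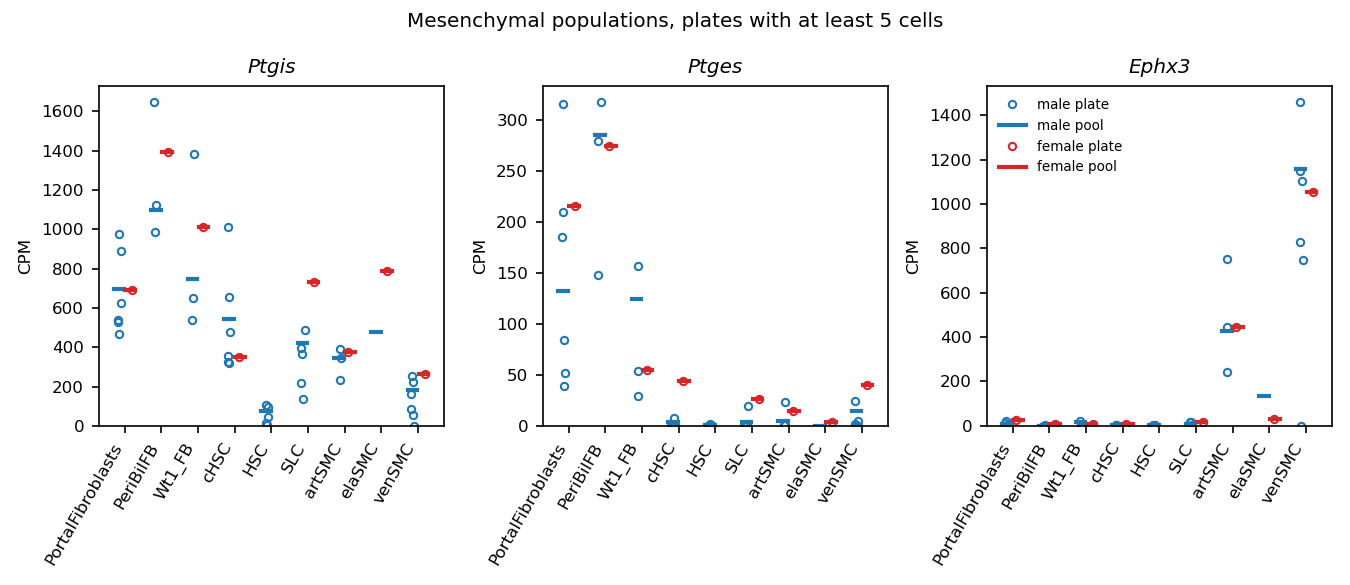
CPM of *Ptgis*, *Ptges* and *Ephx3* on each plate (points, coloured by sex) in the mesenchymal populations, with a dash for the level of the male and of the female pool. Over both sexes *Ptges* passed 50 CPM in the 3 fibroblast populations and *Ephx3* in the 3 smooth muscle populations, in large vein cells only through 2 positive cells, whereas *Ptgis* passed it in all 9 populations shown.

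Kupffer cells also carried *Ptgis*, at 225 CPM, with 33.5% of the cells positive (95% interval 29.2 to 37.9). The male plates gave 17.6, 97.4, 158 and 274 CPM and the female plates 142 and 249 CPM, so the sexes overlapped. Cycling Kupffer cells held 244 CPM, whereas monocytes held 0 positive of 57 cells. In the whole immune class, male cells held 11.8% and female cells 38.8% of the mesenchymal *Ptgis* level. These shares also reflect make-up, since Kupffer cells were 115 of 255 male and 354 of 396 female immune cells. In Kupffer cells alone, *Ptgis* stood at 166 CPM (male) and 238 CPM (female). The mesenchymal genes *Pdgfrb* and *Col1a1* stood at 0.453% and 0.397% of their mesenchymal level in male immune cells and at 1.14% and 0.270% in female ones. Those of *Reln*, a stellate cell gene, were 0.882% and 6.23%.

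*Ptges*, the inducible prostaglandin E synthase, followed *Ptgis* in part. The mesenchymal pools held 95.5 and 92.0 CPM, and each of the other classes less than 1.3 CPM. Peribiliary fibroblasts stood at 283 CPM (148 to 317 over 4 plates), portal fibroblasts at 157 CPM (39.1 to 315 over 7 plates) and *Wt1* fibroblasts at 98.4 CPM (29.4 to 156 over 4 plates). The portal fibroblast clusters were unequal, with 190 CPM in #m1, 179 CPM in #m10 and 17.1 CPM in #m8. *Ptges* stood at 1.30 CPM in HSC, at 13.8 CPM in capsular stellate cells, where 1 of 113 cells held 71.2% of the counts, and ranged from 0.471 to 23.7 CPM over the 4 plates of arterial smooth muscle cells, and all 3 populations carried *Ptgis*.

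*Ptgds*, which encodes the lipocalin-type prostaglandin D synthase, was scarce. It had 1657 counts in all cells, and 71.2% of them came from 10 cells. Cholangiocytes, the cells that line the bile ducts, held 23.5 CPM with 15 positive of 194 cells, and the 6 mesothelial cells held 21.2 CPM, all of it from 1 cell. The 5 male cholangiocyte plates gave 0, 3.15, 7.94, 21.2 and 29.9 CPM and the female plate 9.26 CPM, and 14 of the positive cells were on the highest plate.

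*Tbxas1* was a gene of the macrophages. The immune pools held 246 CPM (male) and 510 CPM (female), the parenchymal pools 35.6 and 59.2 CPM, and endothelium 8.79 CPM. Kupffer cells stood at 504 CPM, with male plates at 163, 319, 335 and 589 CPM and female plates at 440 and 535 CPM. The sexes overlapped here, whereas for *Ptgs1* the same plates did not. Cycling Kupffer cells held 563 CPM, sKC 351 CPM, monocytes 140 CPM and B cells 2.10 CPM.

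Outside the immune class, *Tbxas1* was seen in cholangiocytes and sinusoidal endothelium. Cholangiocytes held 58.2 CPM, which was 11.6% of the Kupffer cell level, and 23 of 194 cells were positive. In the same cells the Kupffer cell genes *Clec4f* and *Cd68* stood at 0.470% and 0.219% of their Kupffer cell level. Sinusoidal endothelium held 17.4 CPM *Tbxas1*, or 3.46% of the Kupffer cell level, beside 1.32% for *Clec4f* and 1.37% for *Cd68*. The part of macrophage RNA in the endothelial value was not tested.

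**Figure D4:**
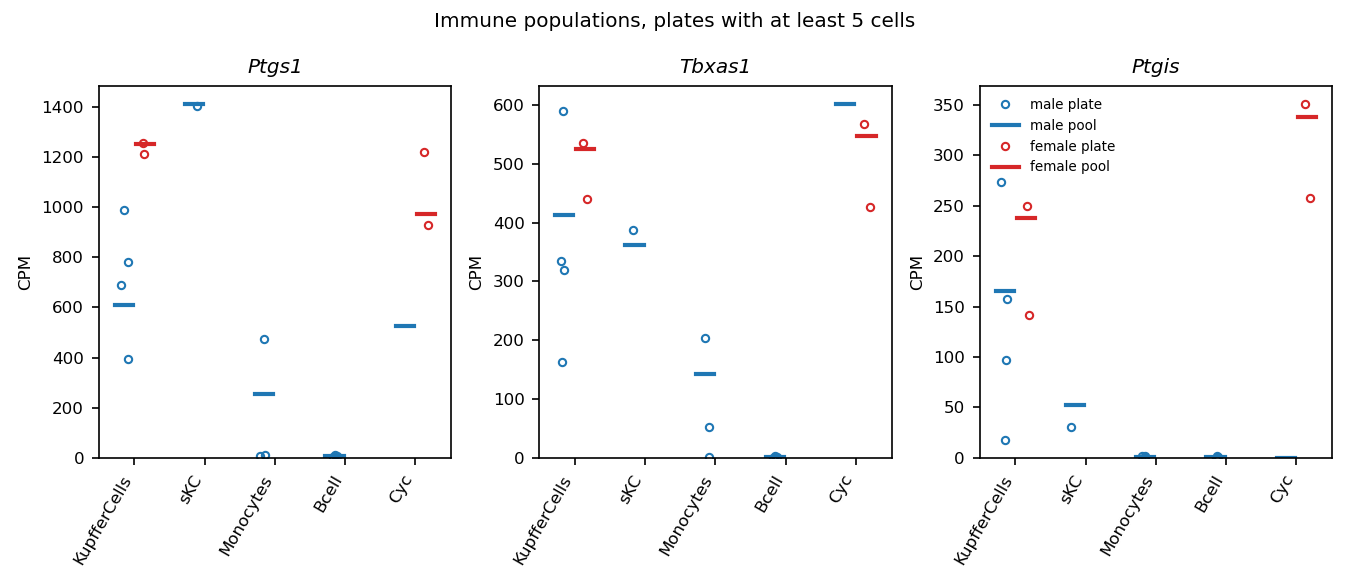
CPM of *Ptgs1*, *Tbxas1* and *Ptgis* on each plate (points, coloured by sex) in the immune populations, with a dash for the level of the male and of the female pool. All 6 Kupffer cell plates lay above 150 CPM for *Ptgs1* and *Tbxas1*, and the B cell plates lay below 11 CPM for all 3 genes.

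*Alox5* was the least frequent of the genes, with 1561 counts and 11 positive cells, all of them immune. Monocytes held 53.6 CPM from 4 positive cells, cycling Kupffer cells 39.8 CPM from 1 cell, and Kupffer cells 2.27 CPM from 6 cells. The 3 monocyte plates gave 0, 13.2 and 107 CPM, so the monocyte level rested mainly on 1 plate of 28 cells. All 4 positive monocytes were also positive for *Alox5ap*, the protein that presents arachidonic acid to 5-lipoxygenase. Of these 4 cells, 3 held at least 20 counts of a gene on a list of 5 mast cell markers, against 1 of the other 53 monocytes. Mast cells are known for *Alox5*, and the part of such cells in the monocyte value was not tested.

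Cells positive for both a synthase and a cyclooxygenase are given beside the share of the cyclooxygenase in all cells of the group, which differed widely. In the mesenchyme, 50 of 776 *Ptgis*-positive cells (6.44%) were positive for *Ptgs1* or *Ptgs2*, beside 4.71% of all mesenchymal cells. In Kupffer cells, 143 of 157 *Ptgis*-positive cells (91.1%) were so, beside 78.7% of all Kupffer cells. Peribiliary fibroblasts gave 25 of 92 cells (27.2%), beside 28.6% of all of them.

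Among *Tbxas1*-positive Kupffer cells, 252 of 276 (91.3%) were positive for *Ptgs1*, beside the same 78.7% of all Kupffer cells. Of the *Ptgis*-positive Kupffer cells, 120 of 157 (76.4%) were positive for *Tbxas1*, beside 58.8% of all. In the endothelium, 54.1% of the cells were positive for *Ptgs1* and 2.53% for *Tbxas1*. The share of a second gene can rise with its own level and with depth, so these shares are a description of cells and not of co-regulation.

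In the portal, peribiliary and *Wt1* fibroblasts, 156 of 176 *Ptges*-positive cells (88.6%) were positive for *Ptgis*, beside 74.8% of all 674 cells. *Ptgs2* and *Ptges* were positive together in 9 of 11 *Ptgs2*-positive peribiliary fibroblasts and in 7 of 14 *Ptgs2*-positive *Wt1* fibroblasts. Of all cells in these populations, 50 of 98 peribiliary and 17 of 113 *Wt1* fibroblasts were positive for *Ptges*.

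*Ephx1*, the microsomal epoxide hydrolase, was the only gene of the 10 that reached 20 CPM in all 24 populations. Its pools held 368 and 243 CPM in the mesenchyme, 132 and 200 CPM in the endothelium, 236 and 291 CPM in the immune class and 248 and 234 CPM in the parenchyma, for male and female cells in this order. The classes overlapped over these pools, except that both endothelial pools were the lowest.

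Endothelial *Ephx1* varied by position. Sinusoidal endothelium stood at 21.2 CPM, the lowest of the 24 populations, with 12 plates between 0 and 103 CPM. The last sinusoidal segment held 149 CPM (71.8 to 211 over 5 plates), central vein endothelium 264 CPM (150 to 677 over 9 plates) and portal vein endothelium 382 CPM (145 to 936 over 8 plates). Plates of sinusoidal endothelium did not overlap with those of either large vein. Lymphatic (467 CPM) and peribiliary (337 CPM) endothelium lay with the large veins. *Ephx1* and *Ptgs1* were thus ordered differently, since the last sinusoidal segment was the highest for *Ptgs1*.

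In stellate cells, *Ephx1* and *Ptgis* had opposite orders. HSC stood at 908 CPM *Ephx1* (525 to 1371 over 5 plates) and capsular stellate cells at 517 CPM (189 to 862 over 7 plates), and the plates of both overlapped. The 6 mesothelial cells held 1044 CPM. Arterial smooth muscle cells (182 CPM) and large vein smooth muscle cells (189 CPM) were the lowest mesenchymal populations.

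Hepatocytes were not a high population for *Ephx1*, although the liver enzyme is known from them. They held 142 CPM, with 23.2% positive cells (95% interval 17.5 to 29.6). Cholangiocytes held 307 CPM (188 to 858 over 6 plates), with 57.7% positive cells (50.4 to 64.8). The 4 hepatocyte plates, all male, gave 0.391, 54.3, 119 and 626 CPM, and so overlapped with those of cholangiocytes. The hepatocyte clusters stood at 405 CPM (#p3), 153 CPM (#p1), 131 CPM (#p4) and 42.5 CPM (#p5), a narrower range than that of the plates.

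*Ephx2*, the soluble epoxide hydrolase, was a hepatocyte gene. Hepatocytes stood at 2278 CPM, with plates at 1614, 1690, 1830 and 2449 CPM, all of them male, and 85.7% were positive (95% interval 80.1 to 90.2). The hepatocyte clusters were between 1684 CPM (#p3) and 2740 CPM (#p5), so *Ephx2* varied less among them than *Ephx1*. The parenchymal pools held 929 CPM (male) and 213 CPM (female), and the female pool had 2 hepatocytes among its 39 cells.

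Cholangiocytes held 78.0 CPM *Ephx2*, in both the male and the female pool (78.0 and 78.2 CPM). This was 3.43% of the hepatocyte level, while of 6 hepatocyte plasma protein genes *Alb* stood at 52.8%, *Ttr* at 39.6%, *Serpina1c* at 9.01%, *Fgb* at 3.17%, *Mup3* at 2.56% and *Apoa1* at 2.37% of the hepatocyte level in the same cells. The part of hepatocyte RNA in the cholangiocyte value was not tested. The mesenchyme held 1.49% of the hepatocyte level of *Ephx2*, within the range of the 6 genes there, from 0.879% (*Mup3*) to 2.92% (*Alb*). The endothelium held 0.0582% of it, below all 6 genes, which ranged from 0.902% (*Mup3*) to 2.49% (*Alb*). Among mesenchymal cells, 84 were positive for *Ephx2*, and venous smooth muscle cells held 52.0 CPM with 12 positive cells. The 56.4 CPM of the 6 mesothelial cells rested on 1 cell with 97.8% of the counts.

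*Ephx3*, a hydrolase of fatty acid epoxides, was a smooth muscle gene. The mesenchymal pools held 156 and 214 CPM and the other classes less than 1 CPM over both sexes. Venous smooth muscle cells stood at 1130 CPM, with 66.7% positive cells (95% interval 57.1 to 75.3). Their 6 male plates gave 0, 747, 831, 1105, 1148 and 1458 CPM and the female plate 1053 CPM, and the plate at 0 held 5 cells. Arterial smooth muscle cells held 437 CPM (245 to 753 over 4 plates) and large vein smooth muscle cells 50.6 CPM, from 2 positive of 34 cells, 1 of which held 53.3% of the counts.

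Within venous smooth muscle, *Ephx3* differed between the communities. Community #m8c held 1684 CPM (1595 in male and 2068 in female cells) and 84.7% positive cells. The authors characterized this community by *Ephx3* and placed it at the portal vein by in situ hybridization for *Ephx3*. Its high level is therefore part of how it was named. Community #m9c held 235 CPM (118 in male and 408 in female cells) and 33.3% positive cells. *Ptgis* had the opposite order in these communities, and 29 of 74 *Ephx3*-positive venous cells (39.2%) were positive for *Ptgis*, near the 33.3% of all venous cells. Stellate cells of both kinds and peribiliary fibroblasts had 0 *Ephx3*-positive cells.

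Levels per kilobase of exon adjust for the exon length of the gene model. The parenchyma, with 203 hepatocytes and 194 cholangiocytes, held the highest such level of the 10 genes, 355 CPM per kb for *Ephx2*. *Ptgs1* followed at 241 CPM per kb in the immune and 172 CPM per kb in the endothelial class, and *Ptgis* at 233 CPM per kb in the mesenchyme. *Ephx1* lay between 81.3 and 167 CPM per kb in the 4 classes. In the immune class, *Tbxas1* stood at 45.4 CPM per kb and *Ptgis* at 68.2 CPM per kb. This order depends on the divisor, 9094 bases for *Tbxas1* and 2567 for *Ptgis*, which can exceed the length of the transcripts present. Before the division, *Tbxas1* stood above *Ptgis* in Kupffer cells, at 504 and 225 CPM. *Alox5* and *Ptgs2* reached 2.02 and 4.43 CPM per kb in their highest class.

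Reads in shared exon bases cannot be told apart for 4 of the genes. *Ptgis* overlaps *1110018N20Rik* by 156 exon bases, *Ptgs1* overlaps *Gm43621* by 148 and *Tbxas1* overlaps *Gm42962* by 144, all on opposite strands, and *Ephx1* overlaps *Gm36961* by 72 on the same strand. The exon lengths of these members were 2567, 3884, 9094 and 1950 bases.

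Other genes had patterns much like those of the 10 genes. Likeness was measured as Pearson's r of log2(CPM + 1) over the 30 multilevel clusters, which share plates and differ in depth, so r is a description. *Ephx3* was most like *Cox4i2* (r = 0.95), *Aoc3* and *Stum*. *Tbxas1* was most like *Csf1r* (r = 0.93), the receptor of a macrophage growth factor, *Kcnj16* and *Igsf6*. *Ptgis* was most like *Pmp22* (r = 0.92), *Pdgfrl* and *Rnf150*. *Ptges* was most like *Wasf3* (r = 0.92) and *Col6a5*, a collagen gene. *Ephx2* was most like *Gstm6* (r = 0.93), *Acaa2* and *Ech1*, the last 2 of them genes of fatty acid oxidation.

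For *Ptgs1*, *RP23.454A14.10* (r = 0.97), *Arl4c* and *Clec1b* were the most alike genes. *Ptgds* was nearest to *Ggt1* (r = 0.93), *Il17re* and the cholangiocyte keratin *Krt19*. The rare genes had *Il6* (r = 0.84), *Negr1* and *Slpi* for *Ptgs2*, and *S100a8* (r = 0.94), *Prss30* and *BC147527* for *Alox5*. *Ephx1* had the weakest likeness, with *Aprt* (r = 0.78), *Cpq* and *Anxa6*.

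The other genes of the pathway, from lists of 62 measured genes, are given by role, with the class in which each was highest. Of 9 genes of arachidonate release, 4 reached 50 CPM in a class. *Pla2g15* (639 CPM) and *Pla2g4a*, the cytosolic phospholipase A2 (121 CPM), were highest in the immune class, *Mgll* (439 CPM) in the endothelium and *Plaa* (77.8 CPM) in the parenchyma. Of 8 other synthesis enzymes, 5 reached 50 CPM. *Hpgds*, the hematopoietic prostaglandin D synthase, stood at 104 CPM in the immune class and at or below 1.06 CPM in the others, while *Ptges3*, *Cbr1*, *Akr1b3* and *Prxl2b* were seen in all 4 classes.

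Of 9 prostanoid receptors, 3 reached 50 CPM. *Ptgir*, the prostacyclin receptor, stood at 60.8 CPM in the mesenchyme, where *Ptgis* was highest, and below 1 CPM in the other classes. *Tbxa2r*, the thromboxane receptor, stood at 165 CPM in the endothelium and 126 CPM in the mesenchyme, with 333 CPM in venous smooth muscle cells; the immune class, which held *Tbxas1*, was lower in *Tbxa2r* than both. *Ptger1* stood at 117 CPM in the immune class.

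Of 6 genes of transport and breakdown, 5 reached 50 CPM. *Hpgd*, which inactivates prostaglandins, stood at 1029 CPM in the immune class, and *Slco2a1*, the prostaglandin transporter, at 448 CPM in the endothelium, as did *Abcc4* at 96.7 CPM. *Ptgr1* (163 CPM) and *Ptgr2* (126 CPM) were highest in the parenchyma. Of 15 leukotriene and lipoxygenase genes, 6 reached 50 CPM. *Alox5ap* stood at 281 CPM and *Ltc4s* at 61.2 CPM in the immune class, *Lta4h* at 170 CPM and *Alox12* at 55.9 CPM in the endothelium, and *Dpep1* at 800 CPM and *Ggt5* at 154 CPM in the mesenchyme.

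Of 15 epoxide-forming P450 and other hydrolase genes, 14 were highest in the parenchyma, and 8 reached 50 CPM there. These were *Cyp2c29* (199.6 CPM), *Cyp2c37* (61.1 CPM), *Cyp2c50* (147 CPM), *Cyp2c70* (85.9 CPM), *Cyp2j5* (135 CPM), *Cyp2j6* (174 CPM), *Cyp4a10* (52.5 CPM) and *Cyp4f14* (178 CPM). The *Cyp2c* genes are close paralogs, and reads could be split among them. *Cyp2j6* also stood at 42.3 CPM in the endothelium and 34.8 CPM in the mesenchyme, the class of *Ephx3*.

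Male and female cells were compared to ask whether the genes differ by sex. Clusters with at least 5 cells of each sex were used, and the summed counts of the sex with more cells in a cluster were scaled down to the cell number of the other sex and rounded. These matched sums were added up per class and sex and tested with edgeR's quasi-likelihood test with the class as a block. They held 8 of 10 mesenchymal, 8 of 8 endothelial, 3 of 7 immune and 1 of 5 parenchymal clusters, so their levels differ from those of the whole pools given above. The groups are pools of cells without named mice, so p-values measure the spread between 4 class differences. Of 21022 genes tested, 3 were called at an adjusted p under 0.05 (0.0143%), *Ddx3y* higher in male and *Xist* and *Tsix* higher in female cells as labelled. Of the 10 members, all tested, 0 were called by edgeR or DESeq2. At an unadjusted p under 0.05 there were 0 members by edgeR, beside 5.94% of all genes, and 1, *Ptgs2*, by DESeq2, beside 6.86% of all genes (DESeq2 adjusted p = 0.275).

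*Ptgs2* had the largest difference, with matched sums of 25.2 CPM (male) and 4.38 CPM (female) in the mesenchymal and 14.9 and 0.347 CPM in the immune class. Its log2 male-minus-female difference was 2.88 ± 1.33 (SE), with an edgeR p of 0.0630 and adjusted p of 0.831. The male fibroblast level rested on few cells of 1 plate, as given above. Of the 97 male immune counts in the matched sums, 96 were in a single cell that the authors annotated as contaminated. The whole male immune pool held 1690 *Ptgs2* counts, 1589 of them in monocytes, whose cluster #i2 had 2 female cells and was left out. Without the contaminated cells, the male immune level of the matched sums was 0.188 CPM, from 1 count, and the female one 0, the log2 difference was 1.89 ± 1.27 and the edgeR adjusted p 0.872.

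*Ptgis* was lower in the male than in the female matched sum of each class, at a log2 difference of -0.42 ± 0.29 (edgeR adjusted p = 0.845), but it turned to 0.10 with sums per cluster. *Ephx1* stood at 0.28 ± 0.24 (edgeR adjusted p = 0.870). *Ptgs1* stood at 0.03 ± 0.41 in the matched sums, at 0.69 with sums per cluster and at -0.81 with sums per plate, so its direction was not settled. The Kupffer cell clusters #i6 and #i7, which were almost all female, were left out.

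**Figure D5:**
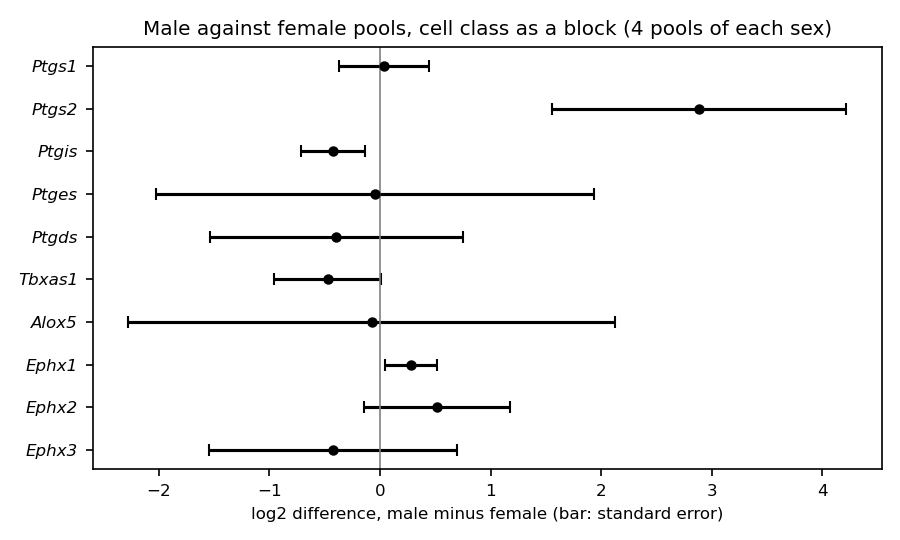
Log2 male-minus-female difference of the 10 genes (points) with the standard error of the edgeR fit (bars), over 4 class pairs of matched sums. The bars of *Ptgs2* and *Ephx1* lie above 0 and that of *Ptgis* below it, the contaminated cell with 96 *Ptgs2* counts is included, and 0 of the 10 genes passed the adjusted threshold.

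For the other pathway genes, 0 of 54 tested passed the edgeR threshold in either direction, and 5 (*Ptges3*, *Pla2g15*, *Slco2a1*, *Dpep1* and *Cyp2c38*) had an unadjusted p under 0.05, beside 5.94% of all genes. DESeq2 called 1 of them, *Dpep1*, beside 0.828% of all genes. Standard errors were taken as the log2 difference over the root of the F statistic and are unstable for differences near 0, as for *Ptges*, whose error was 1.98 with and 0.44 without the contaminated cells.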

How the data were processed

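The authors aligned Smart-seq2 reads to the mouse genome and counted reads per gene. The submitters' notes name Bowtie, Bowtie2, featureCounts, Subread, Seurat, bcl2fastq and GRCm38 or mm10, without roles or versions. The deposited values are raw read counts per gene and cell, with cell class, sex, plate, clusters and annotation in the deposited cell tables. The multilevel and community clusters and the annotations are the authors' own, made from the same transcriptomes. No doublet caller was run here, and no cell was removed. The 92 ERCC spike-in rows (1.95% of counts) were left out of all totals.

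Counts were summed over cells of a group and divided by the group's total (CPM), and by exon length in GENCODE vM21 for CPM per kb. Exon lengths matched 88.2% of symbols. Sums for the sex comparison were scaled within each cluster to the smaller cell number of the 2 sexes. Differences between sexes were tested with edgeR 4.0.16 (quasi-likelihood, class as block, Benjamini-Hochberg adjustment, low counts filtered with filterByExpr) and, as an alternative, DESeq2 1.42.0 in R 4.3.3. The fit had 3 residual degrees of freedom. The scripts were tested on simulated data. Levels were computed with Python 3.11.15 and pandas 2.3.3.

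Total counts ranged from 6399550 (female parenchymal) to 218419420 (male mesenchymal) per pool. The members and the gene lists were chosen with earlier results of these data known. All 10 members were named, pathway genes were named at 50 CPM or more in a class, and as most alike the 3 genes with the highest r among 14660 genes at 20 CPM or more in a cluster. *Fam213b*, an older symbol on the lists, was measured as *Prxl2b*, and *Cyp2c44* was not analysed here. One of the genes most like *Ptges* is not reported here.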

Additional observations from a re-analysis of the deposited data

How the results depend on the processing

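The number of members called between male and female cells was 0 under every alternative run. The number of all genes called, 3, was 148 with DESeq2, 5 with all cells of a class and sex summed, 119 with sums per plate and class and 329 with sums per cluster and sex, and 0 to 1 with one class left out. The cause was not tested. With each cell thinned to 50000 counts or averaged per cell, all 10 genes kept their highest class, but 3 of 10 levels there moved by more than the spread between pools, and 5 of 10 shares of cells in the highest cluster moved when the limit was 20 counts instead of 1. Of the levels in the highest cluster, 6 of 9 moved with the female pool alone, 5 of 10 without the largest plate and 2 of 10 with the male pool alone, with thinning or with averaging. *Ptgs1* was highest in endothelium instead of immune cells in the male pool alone and without the largest plate, and *Ephx1* was highest in immune cells in the female pool alone. Without the largest plate, *Ptgs2* in #m9 went from 140 to 25.1 CPM, *Alox5* in #i2 from 42.9 to 4.57 CPM, *Ptgds* in #p2 from 23.5 to 10.1 CPM and parenchymal *Ephx2* from 882 to 319 CPM. Leaving out the contaminated cells, an alternative chosen after seeing the data, moved no gene's level in its highest class or highest cluster beyond that spread, but the male immune *Ptgs2* level of the sex comparison went from 14.9 to 0.188 CPM and its log2 difference from 2.88 to 1.89. The directions of uncalled sex differences were unstable. On the log2 scale, male minus female, sums per cluster gave 0.10 for *Ptgis*, 0.027 for *Tbxas1* and 1.11 for *Alox5*. Sums per plate gave -0.81 for *Ptgs1*, 1.31 for *Ptges* and 1.05 for *Alox5*. All cells summed gave -0.43 for *Ptgs1*, 1.12 for *Ptges* and 2.08 for *Alox5*. *Ptgs1* was -0.015 with DESeq2 and -0.088 with clusters of 10 cells or more. With one class left out, values ranged from -0.39 to 0.45 for *Ptgs1*, -0.91 to 0.40 for *Ptges*, -1.62 to 0.24 for *Ptgds*, -0.87 to 0.014 for *Tbxas1*, -0.030 to 0.78 for *Ephx2* and -1.63 to 0.74 for *Ephx3*. *Ptgs2* was higher in male cells in all 10 alternatives that gave it a value (1.23 to 3.95) and *Ephx1* in all 11 (0.021 to 0.61). The sex comparison paired the pools by class, as its block. The alternative with sums per cluster and sex, which had the cluster as a covariate, paired the sexes within each cluster. No pairing by mouse was possible, because the labels do not tie cells to mice and give the pools no replicate numbers.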
